A study of Rattus norvegicus with 12 samples.

Results

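Rbfox1, Rbfox2, Rbfox3 and Qk, the 4 genes described here, encode the rat RBFOX and Quaking splicing regulators, and they are 4 of the 33294 genes in the count table. They were chosen by gene family, and their counts and fold changes in these same 12 libraries were already known when they were chosen. Their levels and fold changes are therefore given as a description, with standard errors and no p-value, and a count of members past a threshold is given only beside that over all genes. Poly(A) RNA was sequenced from PAC1 cultures, a rat line from pulmonary arterial smooth muscle, in 4 groups of 3 libraries. The D1 group was the differentiated state (PAC1-D), which was split less often, and it received a control siRNA. The P group was the proliferative state (PAC1-P), which was split more often, and it received the same control siRNA. RBPMS KD1 was PAC1-D given siRNA against RBPMS, and MBNL KD was PAC1-D given siRNAs against MBNL1 and MBNL2 together, although the titles of those samples name MBNL1 alone. All 12 cultures were transfected, with 90 pmol of siRNA according to the labels, which also place a second treatment after 24 h and the harvest 48 h later. The methods of the study describe a longer schedule for this line. None of the 12 libraries received an siRNA against a member, and all of them come from 1 cell line.

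RBFOX proteins carry a single RNA recognition motif that binds GCAUG, mostly in introns. In general they favour inclusion of an exon when bound downstream of it and skipping when bound upstream. RBFOX1 is known from brain, heart and skeletal muscle, RBFOX2 is more widely expressed, and RBFOX3 is the neuronal nuclear antigen NeuN. Quaking (Qk) is a STAR-domain protein that binds ACUAA-like sequences. It is known for myelin gene expression in glia and for splicing in smooth muscle.

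The siRNAs that define the groups are shown because Rbfox2 was lower in both knockdowns, which were made with different oligonucleotides. The sense strands listed by the study are written from 5′ to 3′, and no base is marked in them.
C2 control: aagguccggcucccccaaaug
RBPMS: ggcggcaaagccgagaaggcgaaca
MBNL1: cacggaauguaaauuugcauu
MBNL2: gaagaguaauugccugcuuuu
The longest run that the RBPMS strand shared with the MBNL1 strand was 3 bases, and with the MBNL2 strand it was 4 bases. Against the reverse complement of either MBNL strand, the longest run in the RBPMS strand was 5 bases. The C2 strand was left out of this comparison. Matches of the siRNAs to Rbfox2 were not searched for, and the cause of its fall was not tested.

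The libraries held from 80842635 to 90771289 counts each, and 3 counts, taken as the detection floor, corresponded to 0.0331 to 0.0371 CPM, the count relative to the library's total on a common scale, which covers counting error only. MBNL KD replicate 3 had the lowest total and lay furthest from its replicates. The targeted genes fell in the libraries labelled for them. Rbpms, which encodes the RNA-binding protein targeted in RBPMS KD1, was at 25.0% of its D1 mean there, and Mbnl1 and Mbnl2 were at 23.8% and 29.6% in MBNL KD. The 9 smooth muscle markers had a summed level of 9690 to 10100 CPM in D1 and of 240 to 255 CPM in P. The sum was 8000 to 8090 CPM in MBNL KD and 4890 to 5010 CPM in RBPMS KD1, and none of the 9 was at 0 in any group. The contractile smooth muscle label thus had its markers in the PAC1-D groups, while in P they were detected at a far lower sum. Levels below are counts scaled by TMM, edgeR's factor for library composition, to a library of average size, as mean ± SD over 3 libraries. They are compared between groups for a gene and not between genes, because no transcript lengths were used.

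**Figure D1:**
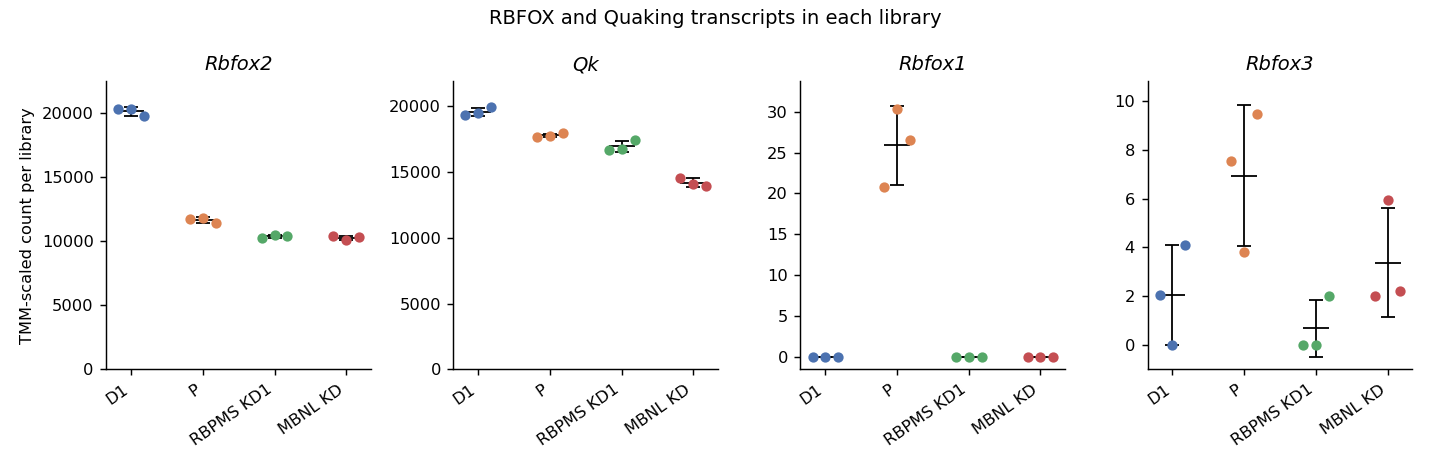
TMM-scaled counts (y axes, each with its own scale) of Rbfox2, Qk, Rbfox1 and Rbfox3 in the 4 groups; points are libraries and black bars are the mean ± SD of 3. Rbfox2 lies between 19746 and 20340 in D1 and between 10095 and 11834 in the other 9 libraries, Qk is lowest in MBNL KD, and Rbfox1 is above 0 in P alone.

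Rbfox2, the widely expressed RBFOX gene, was highest in differentiated control cells and lower in all 3 other groups. Its scaled counts in D1 were 20286, 20340 and 19746 (20124 ± 329). In P they were 11746, 11834 and 11386 (11655 ± 238), or 57.9% of the D1 mean. The 3 P libraries lay together and well below every D1 library.

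In RBPMS KD1, Rbfox2 stood at 10268, 10449 and 10392 (10370 ± 92.3), or 51.5% of the D1 mean. In MBNL KD it stood at 10392, 10095 and 10338 (10275 ± 158), or 51.1%. The libraries of both knockdowns overlapped each other and lay below every P library, so that the order was D1, then P, then the pair of knockdowns. In these bulk libraries, fewer cells with a transcript and less of it per cell cannot be told apart.

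The log2 fold change of Rbfox2 against D1 was -0.79 (SE 0.0257, n = 3 per group) in P, -0.96 (SE 0.0258) in RBPMS KD1 and -0.97 (SE 0.0241) in MBNL KD. These 3 comparisons share the D1 libraries. None of the 3 values reached the fold threshold of the study's methods, an absolute log2 fold change above 1. Between the knockdowns, the log2 difference in Rbfox2, MBNL KD minus RBPMS KD1, was -0.02 (SE 0.0252), and its sign turned under quantile normalization and under scaling by library totals alone. Of the genes tested, 14.4% had a lower log2 fold change than Rbfox2 in P, while 2.13% did in RBPMS KD1 and 4.53% in MBNL KD. The fall of Rbfox2 thus lay further into the lower tail in the knockdowns than in P, where the spread over all genes was wider.

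Qk, the Quaking gene, moved less than Rbfox2, and its lowest level was in MBNL KD. Its scaled counts in D1 were 19325, 19502 and 19924 (19584 ± 308). In P they were 17698, 17747 and 17944 (17796 ± 130), or 90.9% of the D1 mean. The P libraries were below the D1 libraries on this scale, but Qk in P changed direction with the scaling.

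In RBPMS KD1, Qk stood at 16652, 16762 and 17435 (16950 ± 424), or 86.6% of the D1 mean. In MBNL KD it stood at 14559, 14093 and 13934 (14195 ± 325), or 72.5%. No 2 groups overlapped on the TMM scale, in the order D1, P, RBPMS KD1 and MBNL KD, with the widest gap, 16.3% of the higher mean, between RBPMS KD1 and MBNL KD.

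The log2 fold change of Qk in P was -0.14 (SE 0.0244) with TMM, -0.05 with quantile normalization and 0.02 when libraries were scaled by their totals alone. Its mean level without TMM was 212 CPM in D1 and 215 CPM in P. Scaling by totals shifted the median log2 fold change of all genes in P to 0.19, against 0.02 with TMM. Relative to the median, Qk was lower in P on both of these scales, but not with quantile normalization, where the median was -0.07. Against D1, Qk changed by -0.21 (SE 0.026) in RBPMS KD1 and by -0.46 (SE 0.0249) in MBNL KD on the log2 scale, and both stayed negative under every scaling tried. In MBNL KD minus RBPMS KD1 it was -0.26 (SE 0.0263). Without MBNL KD replicate 3, the library that stood apart, the values for MBNL KD against D1 were -0.45 for Qk and -0.97 for Rbfox2.

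The count of Rbfox2 divided by that of Qk in the same library does not depend on any scaling factor common to all genes of that library, such as TMM or the total. Quantile normalization uses no such common factor and can change the ratio. Because the transcripts differ in length, only its change between groups can be read. It was 1.028 ± 0.0321 in D1, 0.655 ± 0.0178 in P, 0.612 ± 0.0142 in RBPMS KD1 and 0.724 ± 0.0156 in MBNL KD (SD, n = 3 each). On the counts, the libraries of the 4 groups did not overlap, and D1 was the highest. The ratio was not taken after quantile normalization, and whether the groups stay apart there was not examined. In MBNL KD, where Qk was at its lowest level, the ratio was higher than in P or RBPMS KD1.

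**Figure D2:**
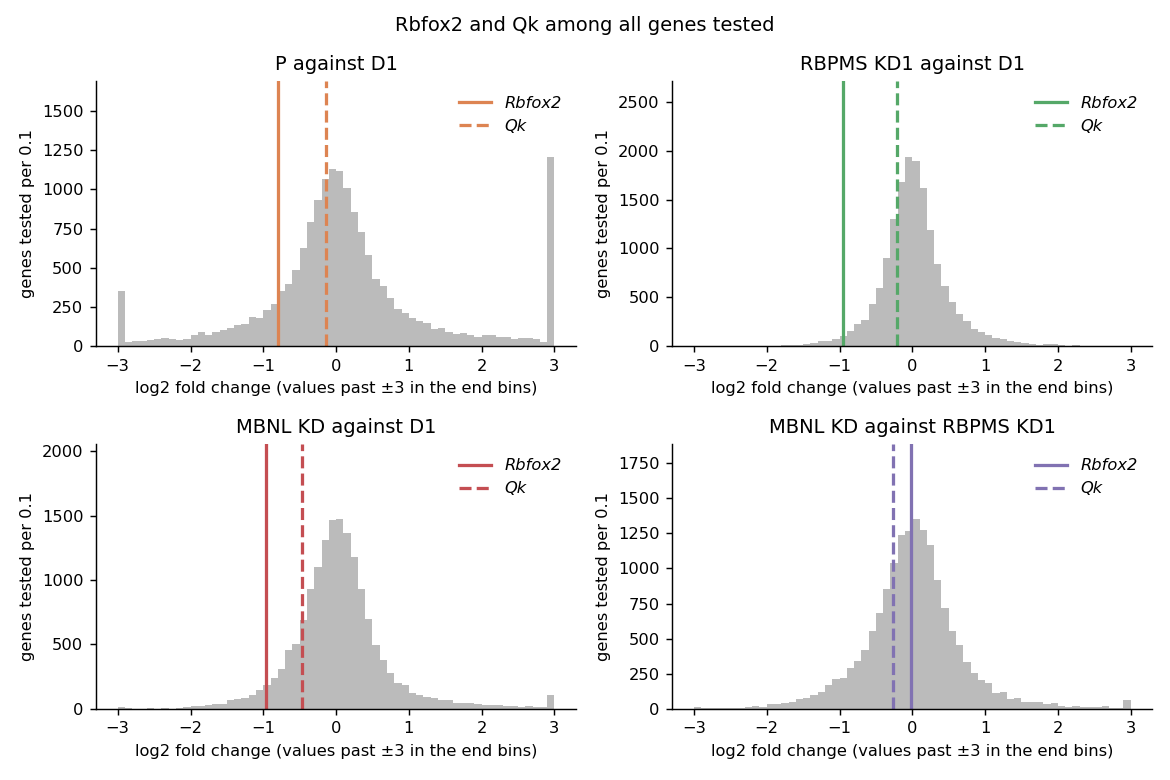
Histograms of the log2 fold change of all genes tested in 4 comparisons, in bins of 0.1 with values past 3 in either direction in the end bins; the solid line marks Rbfox2 and the dashed line Qk. In RBPMS KD1 2.13% of genes lie to the left of Rbfox2, and in P 14.4% do.

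Rbfox1, the brain and muscle paralog, had no count in any of the 9 PAC1-D libraries and low counts in P. The P libraries held 22, 32 and 28 raw counts, which is 25.9 ± 4.82 after scaling. Every P library was above every other library. All 3 of these counts were even numbers, and library totals exceed the depth to which the methods subsampled the reads, so both mates of a pair may have been counted, which the sources used here do not state. With counts halved for this, and against the floor of 3 counts per library, Rbfox1 was at least 4.31-fold higher in P than in D1. On the counts as deposited the bound was 8.63-fold.

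Rbfox3 was near the floor in every group. Its raw counts were 2, 0 and 4 in D1, 8, 4 and 10 in P, 0, 0 and 2 in RBPMS KD1, and 2, 6 and 2 in MBNL KD. P overlapped D1 at 4 counts. The ratio of summed counts in P to those in D1, per total count, was 3.8, with a 95% counting interval of 1.0 to 21.2 on halved counts. The corresponding intervals in both knockdowns spanned 1, and a difference there was not detectable at this depth. All 9 nonzero counts of Rbfox3 were even, beside 65.9% to 68.6% of all counts from 1 to 40 in a library.

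Markers of other cell types moved in P together with the rise in Rbfox1. The 8 neuron markers had a summed level of 137 to 140 CPM in P, against 16.0 to 17.0 CPM in D1. The sum was 10.0 to 11.3 CPM in MBNL KD and 16.8 to 18.7 CPM in RBPMS KD1. In P, 5 of the 8 were above the floor in every library. Snap25 was at 0 in P and Elavl4 was at 0 in all 12 libraries. Syt1, a synaptic vesicle gene of the list, fell in P by 0.88 on the log2 scale (SE 0.122, adjusted p = 8.9e-08) and in MBNL KD it fell by 2.84 (SE 0.17, adjusted p = 4.2e-15). The P total came mainly from Stmn2, with 7489, 7414 and 7612 counts, and Map2, with 4531, 4199 and 4433 counts. Both encode microtubule regulators. Epithelial markers, nearly all of them Krt8 counts, summed to 85.8 to 89.7 CPM in P, 53.5 to 54.7 in MBNL KD, 37.5 to 40.4 in RBPMS KD1 and 34.3 to 35.8 in D1. Glial markers, among them the Quaking-linked gene Mbp, summed to 7.0 to 7.13 CPM in P, 14.5 to 15.3 in RBPMS KD1, 16.3 to 18.4 in D1 and 21.0 to 22.6 in MBNL KD, where Gfap rose by 2.23 on the log2 scale (SE 0.613, adjusted p = 0.002). Endothelial markers summed to 5.84 to 7.28 CPM in P, 1.76 to 1.8 in RBPMS KD1, 0.94 to 1.41 in MBNL KD and 0.716 to 0.787 in D1. Tek and Vwf rose in RBPMS KD1, by 1.32 and 1.22 on the log2 scale (adjusted p = 0.00022 and 2.4e-05). Macrophage and striated muscle markers stayed at or below 1.55 CPM in every group. Within these sums Myod1 held 64, 44 and 64 counts in MBNL KD and 0 in D1, Ckm fell in RBPMS KD1 and MBNL KD, by 1.86 and 1.53 on the log2 scale (adjusted p = 1.3e-06 and 6.4e-06), and Csf1r rose from a mean of 23.5 to 58.1 scaled counts in MBNL KD (adjusted p = 0.00024). The endothelial markers Cdh5 and Kdr were at 0 in the PAC1-D groups, as Rbfox1 was. In P, Cdh5 held 126, 138 and 122 counts, and Tek rose there by 3.71 on the log2 scale (SE 0.181, adjusted p = 6.4e-19). The part of these markers in the levels of Rbfox1, Rbfox2 and Qk was not tested.

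Members were counted against all genes by the study's fold rule, an adjusted p under 0.05 with an absolute log2 fold change above 1. Rbfox1 was the 1 member past it in P, out of the 3 tested there, where 27.6% of all genes tested passed. It entered the comparison through its P libraries alone, since it had no count in D1. In RBPMS KD1, MBNL KD, and MBNL KD against RBPMS KD1, 0 of the 2 members tested passed, beside 4.68%, 10.2% and 11.9% of all genes. By the adjusted p alone, the share of genes that passed was 77.9% for P and 67.5% for MBNL KD. It was 59.1% for RBPMS KD1 and 69.5% between the knockdowns. Rbfox3 was below the expression filter in all 4 comparisons, and Rbfox1 was below it in the 3 without P libraries. The count rests on the same values that the members were chosen with, so nothing is read from it.

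RBFOX proteins act within the large assembly of splicing regulators (LASR), and 9 genes of its subunits, none of them a member, were tested by edgeR's quasi-likelihood test with the p adjusted over all genes. This list and those below were also chosen with earlier results of these data known, so their counts are not independent evidence of a direction. In RBPMS KD1, 8 of the 9 fell, 0 rose and 1 did not pass, and their median log2 fold change was -0.35 against 0.0043 for all genes, of which 29.5% fell. With quantile normalization and with library totals 7 of the 9 fell and 2 did not pass, as the small fall of Hnrnph1 was lost (-0.07 with TMM, SE 0.0255, adjusted p = 0.02). Matr3, encoding matrin 3, fell from 6883 ± 263 to 4103 ± 56.8, a log2 fold change of -0.74 (SE 0.0331, adjusted p = 2.4e-17). Hnrnph2 fell from 11165 ± 137 to 6746 ± 155, a log2 fold change of -0.73 (SE 0.028, adjusted p = 1.1e-18). Hnrnpul2 changed by -0.61 (SE 0.0367, adjusted p = 2e-14). These 3 partners stood at 59.6%, 60.4% and 65.3% of their D1 means.

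In MBNL KD, 7 of the 9 partners fell, 1 rose and 1 did not pass, with a median of -0.15 against 0.0099 for all genes, of which 33.7% fell. The number that fell was 5 with quantile normalization and 6 with library totals. Matr3 fell by less here, -0.29 (SE 0.0341, adjusted p = 1.1e-08), and Hnrnpc, an RNA-packaging protein gene, rose by 0.13 (SE 0.0258, adjusted p = 3.9e-05). Tested directly against RBPMS KD1, 6 partners were higher in MBNL KD, 2 were lower and 1 did not pass, while 35.1% of all genes were higher and 34.5% lower. Hnrnph2 differed most, by 0.68 (SE 0.0324, adjusted p = 9.2e-18).

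In P, 2 partners rose, 3 fell and 4 did not pass, and their median of -0.02 lay next to the median of all genes, 0.02. Of all genes, 40.4% rose and 37.6% fell. These counts moved with the scaling, to 4 risen and 2 fallen with quantile normalization and 6 risen and 1 fallen with library totals. Hnrnph1, the closest relative of Hnrnph2, fell from 28382 ± 97.6 to 17191 ± 309, a log2 fold change of -0.73 (SE 0.0242, adjusted p = 1.1e-23). Hnrnph2 was at 0.01 (SE 0.027, adjusted p = 0.68) in P. Ddx5, an RNA helicase gene, was at -0.14 (SE 0.0232, adjusted p = 2.5e-06) in P but at 0.13 under quantile normalization and 0.03 with library totals.

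**Figure D3:**
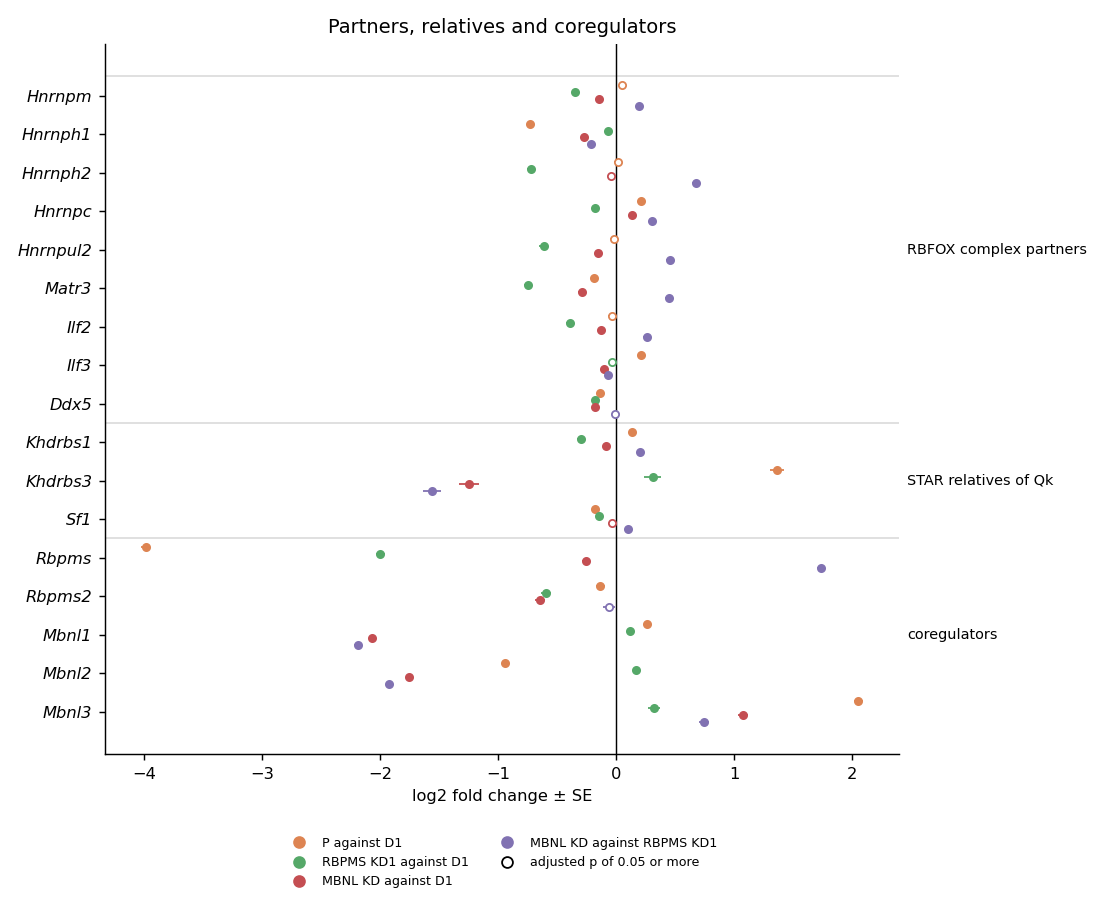
Log2 fold change ± SE (x axis) of 17 tested RBFOX complex partners, STAR relatives of Qk and coregulators (y axis) in 4 comparisons, told apart by colour; open circles are genes with an adjusted p of 0.05 or more. The partners sit lowest in RBPMS KD1, and Khdrbs3 lies to the right in P and to the left in MBNL KD.

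The relatives of Qk with STAR or related KH domains were Khdrbs1, Khdrbs2, Khdrbs3 and Sf1, and 3 of them were tested, as Khdrbs2 was below the filter. In P 2 rose and 1 fell, in RBPMS KD1 1 rose and 2 fell, and in MBNL KD 0 rose, 2 fell and 1 did not pass. Of all genes, 40.4% rose and 37.6% fell in P, 29.5% and 29.5% in RBPMS KD1, and 33.8% and 33.7% in MBNL KD. The fall of Khdrbs1 in MBNL KD, -0.09 (SE 0.0229, adjusted p = 0.0011), was lost with quantile normalization (adjusted p = 0.61) and library totals (adjusted p = 0.16), and the fall of Sf1 in P was lost with library totals (adjusted p = 0.7). Khdrbs3 encodes SLM2, a splicing regulator known for neurexin exons. Its scaled counts were 841, 706 and 845 in D1, 2067, 1979 and 2148 in P, 1006, 923 and 1036 in RBPMS KD1, and 319, 330 and 358 in MBNL KD. No 2 groups overlapped. It rose by 1.37 (SE 0.0595, adjusted p = 2.7e-20) in P and fell by 1.25 on the log2 scale (SE 0.0849, adjusted p = 8.1e-14) in MBNL KD. It differed between the knockdowns by -1.56 (SE 0.0774, adjusted p = 2.4e-17). Both its rise and its fall went past the fold threshold that Qk stayed short of.

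In the coregulator families to which the knockdowns belong, 5 of 5 genes passed the adjusted p in P, where 77.9% of all genes did. In RBPMS KD1 and in MBNL KD 5 of 5 also passed, beside 59.1% and 67.5% of all genes, but these counts include the siRNA targets Rbpms, and Mbnl1 and Mbnl2, whose fall the design fixed. The call of Rbpms2 in P, -0.13 (SE 0.0377, adjusted p = 0.002), was lost with library totals, where it was at 0.03 (adjusted p = 0.41). In P, Rbpms fell by 3.99 on the log2 scale (SE 0.0398, adjusted p = 1.3e-38), from 13324 ± 701 to 842 ± 9.33. Rbfox2 and Rbpms were thus both lower in P, but to 57.9% and 6.32% of their D1 means. Mbnl2 fell in P by 0.94 (SE 0.026, adjusted p = 5.7e-26), and the third muscleblind gene, Mbnl3, rose by 2.05 (SE 0.0375, adjusted p = 3.9e-31) in P and by 1.08 (SE 0.0433, adjusted p = 2.7e-19) in MBNL KD. Rbpms2, the paralog of Rbpms, fell by 0.60 (SE 0.0436, adjusted p = 1.6e-12) in RBPMS KD1 and by 0.65 (SE 0.0424, adjusted p = 3.3e-14) in MBNL KD. Between the knockdowns Rbpms2 was at -0.06 (SE 0.0508, adjusted p = 0.32).

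Gene totals were also taken for genes that carry exons under RBFOX or QK control, since a total does not show which exon was used. The first list holds 11 genes whose exons the study tested, many of them contractile or adhesion genes, and it is not independent evidence of a direction because the study chose it. In P, 10 of the 11 fell and 1 rose, with a median of -1.82 against 0.02 for all genes, of which 37.6% fell and 40.4% rose. Myocd, the coactivator of smooth muscle transcription, went from 27191 ± 475 to 871 ± 66.3 and fell by 4.97 on the log2 scale (SE 0.0371, adjusted p = 5.4e-42). Ppfibp1, encoding liprin beta 1, was the gene that rose, by 1.20 (SE 0.0241, adjusted p = 5.7e-30).

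In RBPMS KD1, 8 of the 11 fell, 2 rose and 1 did not pass, with a median of -0.49, where 29.5% of all genes fell and 29.5% rose. Smtn, encoding smoothelin, changed by -0.88 (SE 0.0272, adjusted p = 7.9e-21) and Tpm1, encoding a tropomyosin, by -0.85 (SE 0.026, adjusted p = 6.5e-21). In MBNL KD, 10 fell and 1 rose, beside 33.7% and 33.8% of all genes, but the median was -0.19. Tpm1 changed by -0.14 (SE 0.0236, adjusted p = 6.4e-06). In the direct test Tpm1 was higher in MBNL KD than in RBPMS KD1 by 0.70 (SE 0.023, adjusted p = 9.1e-22). None of the 11 passed the fold threshold in a knockdown. Myocd and Smtn are also among the smooth muscle markers, whose sums were lower in the same groups, although in MBNL KD 7 of the 9 markers fell and 2 rose, Myh11 by 0.54 (adjusted p = 1.3e-13) and Cnn1 by 0.12 (adjusted p = 0.026). Their part in the list's counts was not tested.

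The second list holds 9 genes with exons known from other work to respond to RBFOX or QK proteins. In P, 6 fell, 1 rose and 2 did not pass, and with library totals 5 fell, 3 rose and 1 did not pass. The shares of all genes in P were 37.6% fallen and 40.4% risen. In RBPMS KD1, 4 fell, 3 rose and 2 did not pass, while in MBNL KD 1 fell, 6 rose and 2 did not pass. Of all genes, 29.5% rose and 29.5% fell in RBPMS KD1, near the split of this list. In MBNL KD, 33.8% of all genes rose and 33.7% fell. For the list in RBPMS KD1, 2 rose, 4 fell and 3 did not pass with quantile normalization. With library totals these were 4, 4 and 1. With quantile normalization 8 rose in MBNL KD. Fgfr2, the fibroblast growth factor receptor gene with the classical RBFOX-controlled exon pair, had scaled counts of 392, 432 and 393 in D1, 203, 166 and 226 in RBPMS KD1, and 831, 684 and 732 in MBNL KD. It fell by 1.03 (SE 0.111, adjusted p = 4.2e-09) in RBPMS KD1 and rose by 0.89 (SE 0.0825, adjusted p = 8.8e-11) in MBNL KD. The direct difference was 1.91 (SE 0.102, adjusted p = 1.6e-16), the largest in the list between the knockdowns. In P, Fgfr2 fell by 1.38 on the log2 scale (SE 0.11, adjusted p = 3.3e-13).

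Mbp, which encodes myelin basic protein and whose RNA is a classical Quaking target, stood at 1285 ± 76.8 in D1 and 396 ± 28.4 in P, and it fell by 1.70 on the log2 scale (SE 0.0707, adjusted p = 7e-21). It changed by -0.28 (SE 0.0585, adjusted p = 0.00014) in RBPMS KD1 and by 0.34 (SE 0.0542, adjusted p = 2.5e-06) in MBNL KD. Fn1, the fibronectin gene, was at 0.23 (SE 0.0239, adjusted p = 3.1e-09) in RBPMS KD1 and at 0.24 with library totals. The value went to 0 under quantile normalization. It rose by 0.55 (SE 0.0119, adjusted p = 7.3e-26) in MBNL KD.

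**Figure D4:**
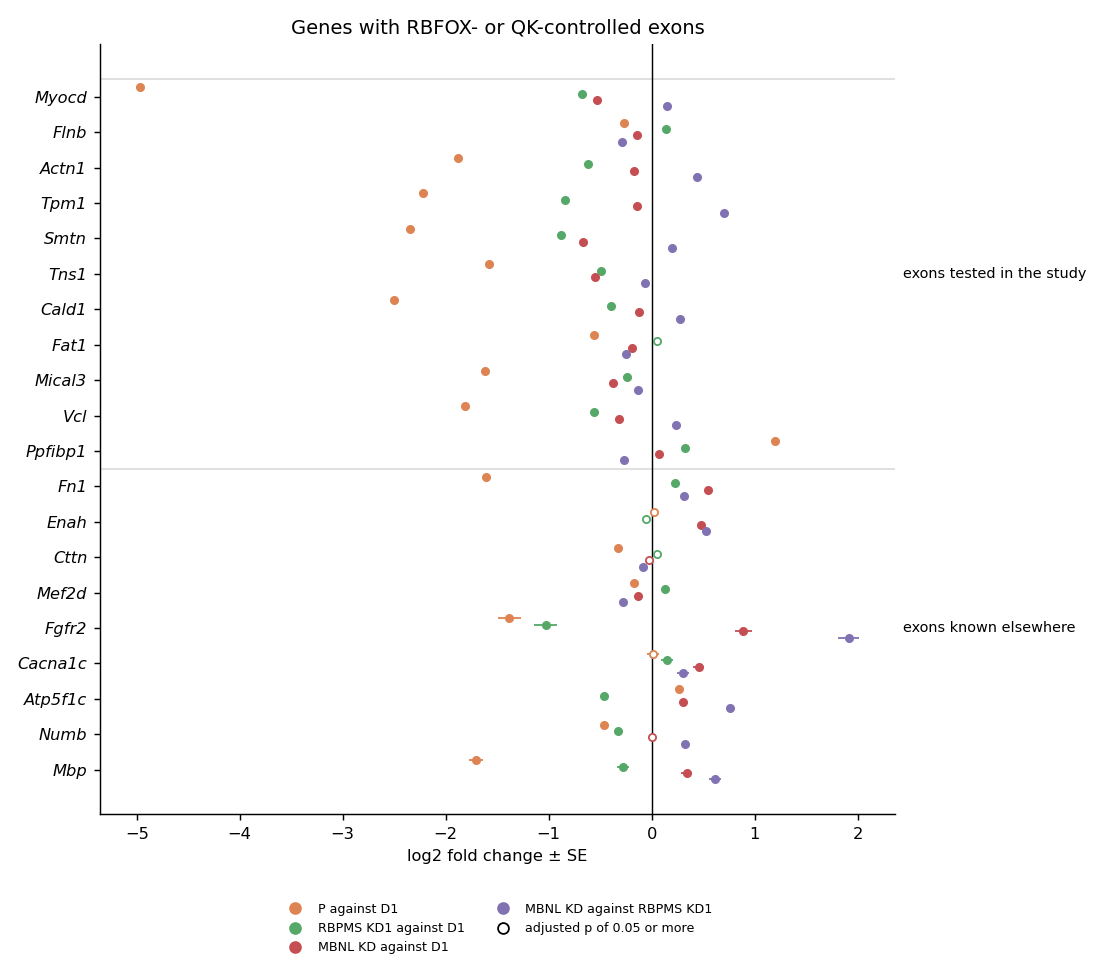
Log2 fold change ± SE (x axis) of 20 genes with exons under RBFOX or QK control (y axis) in 4 comparisons, told apart by colour; open circles are genes with an adjusted p of 0.05 or more. The upper 11 genes lie mostly to the left in P, down to -4.97 for Myocd, and Fgfr2 lies on opposite sides of 0 in the knockdowns.

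The genes whose pattern was most like that of a member were ranked by Pearson's r of log2 CPM over the 12 libraries, among 12648 other genes for Rbfox2 and Qk and 12649 for Rbfox1. Rbfox3 was below the filter and was not ranked. The libraries share 4 group levels, so r reflects mainly those levels. For Rbfox2 the first 5 were Ipo13 (r = 0.9896), Podxl2 (0.9892), Prdx2 (0.9892), Lsm14b (0.9888) and Klhl18 (0.9886). Podxl2, encoding endoglycan, was at 45.8% of its D1 mean in P, with 41.3% in MBNL KD and 36.3% in RBPMS KD1.

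For Qk the first 5 were Bicd2 (r = 0.9906), Tsnax (0.9877), Dlgap5 (0.9857), Zfp503 (0.985) and Klhl42 (0.9846). Bicd2, a dynein adaptor gene, was at 74.1%, 64.2% and 38.1% of its D1 mean in P, RBPMS KD1 and MBNL KD. For Rbfox1, r compares 3 P libraries with 9 libraries at 0, and Kcng3 and Tmem154 were among the genes most like it, each with r = 0.9984.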

How the data were processed

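Per the paper's methods, reads were subsampled, aligned with STAR 2.7.11b to mRatBN7.2 and counted per gene with featureCounts against RefSeq. The authors deposited raw read counts, used here for all main results, and a table of signal values that they made with noisyR's noise correction followed by quantile normalization, used for 1 alternative. Rbfox1 is not in the latter. The kit marks strand, but the strand setting of the counting is not given in the sources used here. The siRNA sequences come from the study's supplementary list.

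Groups came from the sample labels. P, RBPMS KD1 and MBNL KD were each compared with D1, and MBNL KD with RBPMS KD1, in R 4.3.3 with edgeR 4.0.16 (filterByExpr on the 6 libraries, TMM, quasi-likelihood F test, Benjamini-Hochberg adjustment over all genes tested). SE was taken as the size of the log2 fold change over the root of its F. Calls needed an adjusted p under 0.05, and the fold rule also an absolute log2 fold change above 1. A floor of 3 counts was used. DESeq2 1.42.0 and limma 3.58.1 served for alternatives, and Python 3.11.15 with pandas 2.3.3 and matplotlib 3.10.9 for summaries and figures. On simulated data, 200 of 200 genes changed 3-fold were recovered in each comparison, with 1 false call for P, 5 for MBNL KD, and 0 for RBPMS KD1 and between the knockdowns. Changes as small as those of Rbfox2 and Qk were not simulated, so their recovery was not measured.

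The named genes are the 4 members, fixed lists of partners, relatives, coregulators and exon-bearing genes, and for each member past the filter over all 12 libraries (not Rbfox3) the 5 genes with the highest r among those with a mean of at least 100 counts. A gene named by this rule is not reported here. Members and lists were chosen with earlier results of these data known. Replicate numbers did not pair the samples: correlations of same-numbered libraries lay between -0.0224 and 0.0203. The methods call replicates biological, but the labels do not say how cultures were kept apart, so p-values measure the spread between these libraries. All 4 members matched RefSeq's GRCr8 table, an assembly other than that of the counts, where Qk is listed as Qki, and its coordinates are not printed. In that table no gene overlaps Rbfox2 or Qk, while noncoding genes overlap Rbfox1 and Rbfox3.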

Additional observations from a re-analysis of the deposited data

How the results depend on the processing

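Rbfox2 stayed negative against D1 in P, RBPMS KD1 and MBNL KD under all 10 alternatives and with each library left out, and never passed the fold threshold. Its log2 fold change with quantile normalization, and with limma on the deposited normalised values, was -0.7276 and -0.7533 in P, -0.9041 and -0.8817 in RBPMS KD1, and -0.8956 and -0.8788 in MBNL KD. With library totals alone, an alternative chosen after the data were seen, it was -0.6256 in P and -0.9142 in MBNL KD. In MBNL KD against RBPMS KD1 its sign reversed, to 0.003129, 0.002831 and 0.025 under these 3 settings. Qk in P was -0.0476, -0.04974 and, reversed, 0.02413 under them. Qk in RBPMS KD1 was -0.1602 with limma, and in MBNL KD it was -0.3869, -0.3732 and -0.4086 under the 3 settings. The cause was not tested.

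The genes past the fold rule numbered 4641 in P, 745 in RBPMS KD1, 1643 in MBNL KD and 1920 between the knockdowns. Requiring 10 counts in every library, which removes genes near 0 in a group, gave 2933 in P. Limma on the normalised values gave 209, 784 and 1050 in the others. Quantile normalization took the share of these genes that were higher from 59.4% to 45.8% in P and from 65.4% to 54.3% in RBPMS KD1. Blocking on replicate number gave 4593, 730, 1634 and 1915 genes, and with this block 31, 34, 33 and 35 list genes passed the adjusted p, against 31, 33, 33 and 35 without it. Counts of list genes past the adjusted p lay between 29 and 35 in all settings, but their direction moved in P, where 8 were higher with TMM, 11 with quantile normalization and 14 with library totals. Of the 5 genes most like Rbfox2, 0 stayed among the first 5 over the 9 PAC1-D libraries and 3 in the normalised values, and for Qk 0 and 1 did. Depth limits Rbfox3, and Rbfox1 in PAC1-D.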
